A study of Danio rerio with 14 samples.

Results

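Hyaluronan is a long sugar chain of the extracellular matrix, and the genes described here make it, bind it, anchor it or carry signals from it in the zebrafish heart. The set was fixed by name: the synthases *has1* and *has2*, the receptors *cd44a*, *cd44b*, *hmmr* and *stab2*, the link proteins *hapln1a* and *hapln1b*, and the versicans *vcana* and *vcanb*. All 10 symbols could be matched to gene identifiers, out of 32520 genes in the count tables. Poly(A) RNA was sequenced from pools of uninjured hearts of adult fish. The methods name the Ekkwill strain and place the fish between 6 months and 1 year of age at treatment. The study's reporting summary names Ekkwill or AB strains and both sexes, and gives other age ranges for many experiments. The labels name hearts as the tissue, while the study's text speaks of ventricles at 7 dpt, so whether other chambers were included there is not known. *il11a*OE fish carried actb2:loxp-BFP-stop-loxp-il11a together with cmlc2:creER, and control fish carried actb2:loxp-BFP-stop-loxp-il11a alone. Both received 5 µM tamoxifen for 24 h. Cre is driven by a cardiomyocyte promoter, so the stop cassette is removed in heart muscle cells, where the actb2 promoter then drives *il11a*. Controls were littermates without CreER. Hearts were taken 7 days after tamoxifen (7 dpt, with 3 *il11a*OE and 3 control libraries) and 7 months after it (7 mpt, with 4 *il11a*OE and 4 control libraries). By the ages in the methods the fish of 7 mpt were older at collection, so time after tamoxifen and age are not told apart.

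Hyaluronan is spun out at the cell surface by Has enzymes, which join 2 activated sugars made in the cytoplasm. Versican, a large proteoglycan, binds the chain, and link proteins of the Hapln family lock that bond. CD44 is a surface receptor that ties hyaluronan to the cytoskeleton, and Stab2 is a scavenger receptor of endothelial cells that takes hyaluronan up for breakdown. Hmmr is known in 2 roles. It was first described as a hyaluronan receptor for cell motility, and in human cells the same protein sits on microtubules of the mitotic spindle, where it works with TPX2 and Aurora A. In the embryonic heart hyaluronan and versican fill the jelly between muscle and endocardium from which valves form. The question put to the data was whether *hmmr* changed with the other hyaluronan genes or with the genes of mitosis.

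The libraries held 61691132 to 80703699 counts at 7 dpt and 73275884 to 130058630 at 7 mpt. Levels are given as CPM, the counts of a gene scaled to a fixed library total, with library sizes adjusted between libraries. Fragments were counted at 7 dpt and single mates at 7 mpt, so levels are compared within a time point only. *il11a* itself lay at 325 to 386 CPM in *il11a*OE hearts, against 41.6 to 53.7 CPM in control hearts at 7 dpt, and at 262 to 433 CPM in *il11a*OE hearts, against 41.0 to 90.5 CPM in control hearts at 7 mpt, and reads of the transgene and of the native gene are not told apart. Cardiomyocyte markers led by *myl7* were abundant in every library. Their summed level was 38593 to 46777 CPM in *il11a*OE hearts, against 66039 to 75892 CPM in control hearts at 7 dpt, and 21443 to 35798 CPM in *il11a*OE hearts, against 58376 to 80676 CPM in control hearts at 7 mpt. In RNA from whole tissue, fewer cells of a type and less RNA per cell cannot be told apart, and this holds for every level below.

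At 7 dpt 4 of the 10 genes rose in *il11a*OE hearts and 2 fell, by edgeR's quasi-likelihood test at an adjusted p under 0.05 over 19647 genes. Those that rose were *hmmr*, *hapln1b*, *stab2* and *cd44b*, and those that fell were *hapln1a* and *has2*. Of all genes tested at 7 dpt, 37.2% were called, 20.2% as higher and 17.1% as lower. At 7 mpt 9 of the genes could be tested, among 18689 in all, and 5 rose (*has1*, *stab2*, *cd44b*, *hmmr* and *hapln1b*) while *hapln1a* fell. The share called among all genes was then 26.4%, with 14.2% higher and 12.2% lower. The libraries of the 2 genotypes did not overlap for 6 of 10 members at 7 dpt, where 52.6% of all genes tested did not overlap, and for 7 of 10 at 7 mpt, where the share was 30.8%.

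**Figure D1:**
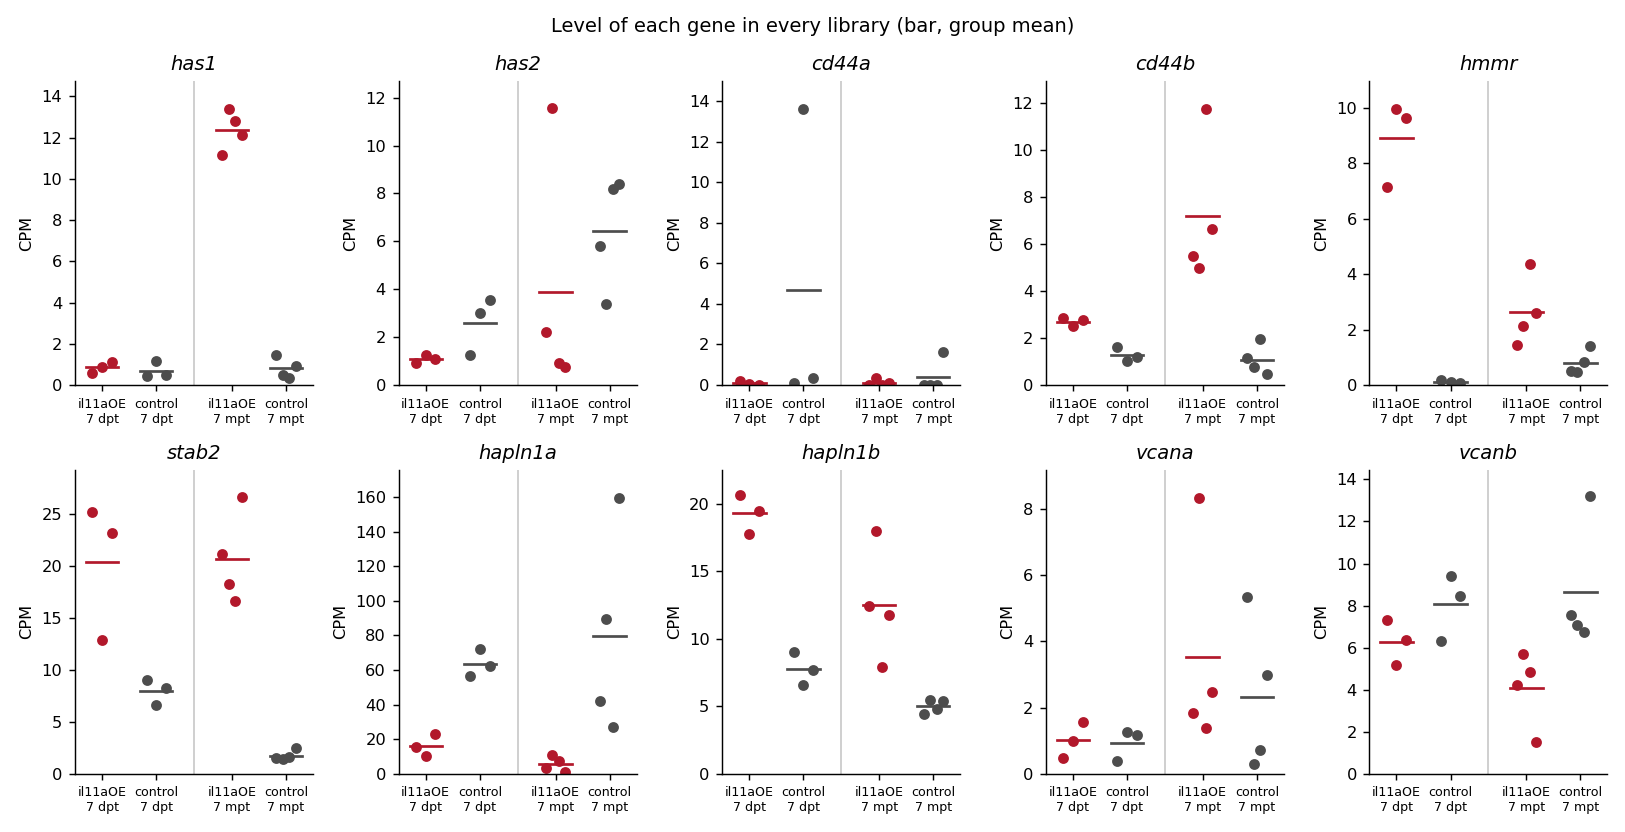
Level of each of the 10 genes in every library, in CPM on linear axes that start at 0. Points are libraries, bars are group means, red is *il11a*OE and grey is control, and the 2 time points are split by a line because their levels are not comparable. *hmmr* lay at 7.15 to 9.95 CPM in *il11a*OE hearts at 7 dpt, against 0.0834 to 0.189 CPM in control hearts, and *has1* at 11.2 to 13.4 CPM in *il11a*OE hearts at 7 mpt, against 0.327 to 1.48 CPM in control hearts.

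*hmmr* (ENSDARG00000021794; GRCz11 chromosome 14, 28545198 to 28562971, plus strand) was nearly silent in control hearts at 7 dpt. It had 7.15, 9.95 and 9.62 CPM in *il11a*OE hearts, against 0.189, 0.104 and 0.0834 CPM in control hearts. Those control levels rest on 12, 6 and 5 counts, against 646, 661 and 873 counts in *il11a*OE hearts, so every *il11a*OE library stood far above every control library. This was a log2 fold change of 6.12 (SE 0.32, n = 3 per genotype, edgeR adjusted p = 7.6e-05), which is 69.6-fold. Of the 19647 genes tested, 21 had a higher fold change. The study had already reported *hmmr* as upregulated in *il11a*OE hearts. It listed the gene under regenerative matrix proteins at 7 dpt and also under genes of vascularization. In published single-cell data of regenerating hearts, the study placed the induction of the vascularization genes, as a group, mainly in epicardial cells. The log2 fold change ran between 5.90 and 6.55 when any 1 library was left out.

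At 7 mpt the difference in *hmmr* was smaller. *hmmr* had 1.46, 2.13, 4.37 and 2.58 CPM in *il11a*OE hearts, against 0.492, 0.46, 0.832 and 1.42 CPM in control hearts. The genotypes still did not overlap, though the lowest *il11a*OE library lay just above the highest control library. On the log2 scale the fold change was 1.72 (SE 0.48, n = 4 per genotype, edgeR adjusted p = 0.025), and 2149 of 18689 genes had a higher one. This call was not firm. It was lost when control replicate 1, 2 or 3 or *il11a*OE replicate 3 or 4 was left out, with adjusted p of 0.052 to 0.086 and log2 fold changes of 1.35 (without *il11a*OE replicate 3) to 1.74 (without control replicate 3). The 7 mpt libraries carry a letter F or M that the labels do not define. In each genotype replicates 1 and 2 carry F, and replicates 3 and 4 carry M. With 2 libraries per genotype the log2 fold change was 1.92 among F libraries (adjusted p = 0.098) and 1.63 among M libraries (adjusted p = 0.074). Apart from leaving out 1 library, 11 alternatives were run at 7 mpt, and the call held in 9. Only the fits of F and of M libraries alone lost it, so it held with the letter as a covariate. The effect at 7 mpt was below that at 7 dpt by a direct test, with a difference of -4.41 on the log2 scale (SE 0.68, edgeR adjusted p = 0.0042). Of 21317 genes in that test 4.41% were called, 2.14% with the effect higher at 7 mpt and 2.27% with it lower, and 3 of the 10 members were among them: *hmmr*, *has1* and *stab2*. The 940 genes called there were 370 to 478 when any 1 library of 7 dpt was left out, and these 3 members stayed called in each case.

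The genes of mitosis changed in the same direction as *hmmr*. All 53 genes of a list of mitosis genes (spindle, kinetochore, cyclin and cytokinesis genes) rose at 7 dpt, with a median log2 fold change of 4.44, against a median of 0.02 over all genes tested. The share called higher among all genes was 20.2%. The list was drawn up with earlier results of these data known. It holds *plk1*, *cdk1*, *ccnb1*, *ccnb2* and *mki67*, which the study had already reported as upregulated at 7 dpt. None of the 53 had a fold change above that of *hmmr*. The closest were *prc1b*, which bundles microtubules of the central spindle (log2 fold change 5.98, edgeR adjusted p = 2.4e-05), and *ccnb1*, the mitotic cyclin B1 (5.92, adjusted p = 0.00011). Summed over the list, mitosis genes had 764 to 1021 CPM in *il11a*OE hearts, against 45.0 to 47.3 CPM in control hearts.

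At 7 mpt 23 of the 53 mitosis genes rose and none fell, with a median log2 fold change of 1.54, against 0.03 over all genes tested. Among all genes 14.2% were called higher and 12.2% lower. *hmmr* stood within this list, as 22 of its genes had a higher fold change. That position was not particular to mitosis genes. A higher fold change was also found in 3 of the 8 other hyaluronan members tested. The same held for 7 of 12 fibroblast markers and 11 of 12 macrophage markers. The nearest to *hmmr* were *birc5a*, survivin of the chromosomal passenger complex (log2 fold change 1.73, edgeR adjusted p = 0.016), and the kinase gene *melk* (1.73, adjusted p = 0.059, not called). The list summed to 97.8, 138, 276 and 191 CPM in *il11a*OE hearts, against 53.8, 65.0, 91.1 and 81.2 CPM in control hearts. The effect at 7 mpt was below that at 7 dpt for 38 of 53 mitosis genes and above it for none, with a median difference of -2.88. Over all genes in that test 2.27% were called lower and 2.14% higher.

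**Figure D2:**
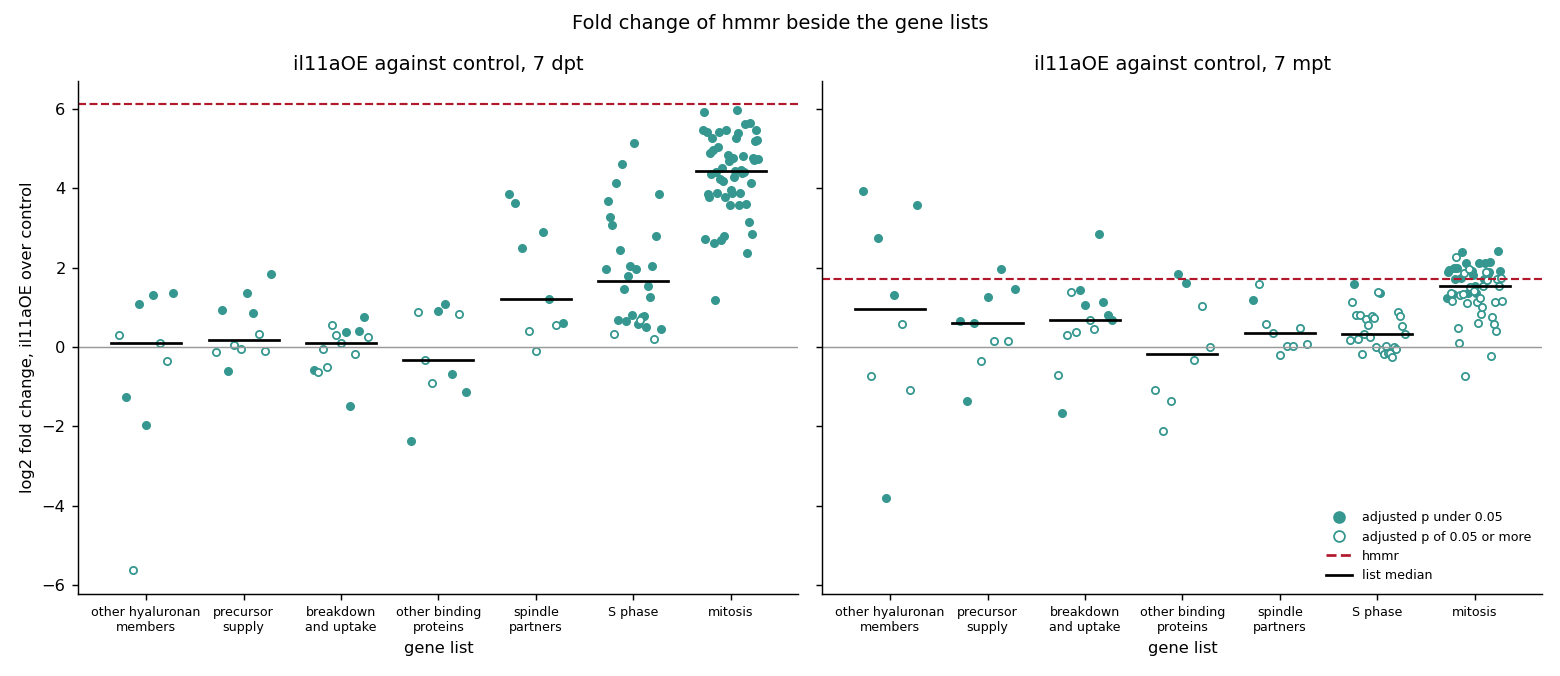
Log2 fold change, *il11a*OE over control, of each gene of 7 lists (points; filled where the edgeR adjusted p was under 0.05), with list medians as black bars and *hmmr* as a dashed red line, at 7 dpt (left) and 7 mpt (right). The *hmmr* line at 6.12 lies above all points at 7 dpt, with the mitosis list next below it. At 7 mpt the line at 1.72 runs through the mitosis list and also through the other hyaluronan members.

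Genes of S phase and the spindle partners of *hmmr* had lower median fold changes than the mitosis list. Of 28 S phase genes 25 rose at 7 dpt (median log2 fold change 1.66) and 2 at 7 mpt (median 0.33), and none fell at either time. The nearest to *hmmr* at 7 dpt were *gins2*, of the replicative helicase (5.15, edgeR adjusted p = 0.00013), and *tyms*, thymidylate synthase (4.62, adjusted p = 2.4e-05). At 7 mpt they were *mcm3*, another helicase gene (1.58, adjusted p = 0.0027), and *gins2* (1.38, adjusted p = 0.06). Of 9 genes for proteins known to act with HMMR at the human spindle, 6 rose at 7 dpt (median 1.22) and 1 at 7 mpt (median 0.34). Among all genes tested 20.2% were called higher at 7 dpt and 14.2% at 7 mpt. Neither list held a larger share of rises than that at 7 mpt. *tpx2*, a spindle assembly factor, had log2 fold changes of 3.85 at 7 dpt (adjusted p = 7.1e-05) and 1.18 at 7 mpt (adjusted p = 0.019), and *aurka*, Aurora A kinase, had 3.63 (adjusted p = 0.0032) and 1.59 (adjusted p = 0.17).

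The other hyaluronan genes went both ways. Of the other 9 members, 3 rose and 2 fell at 7 dpt, with a median log2 fold change of 0.11. Of the other 8 tested at 7 mpt, 4 rose and 1 fell, with a median of 0.95. Of all genes tested, 20.2% were called higher and 17.1% lower at 7 dpt, and 14.2% and 12.2% at 7 mpt. In the test of the difference of effects, in which *hmmr* was lower at 7 mpt than at 7 dpt, none of the 9 was called lower and 2 were called higher. Over all genes in that test 2.27% were called lower and 2.14% higher.

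Likeness to *hmmr* was then measured library by library. The log2 CPM of each gene (prior count 1) was centred on the mean of its time point, and the root mean square difference from *hmmr* over the 14 libraries was taken for the 17932 other genes tested at both times. The 5 nearest genes were *cdk1*, the kinase that starts mitosis (0.37), *top2a*, topoisomerase of chromosome condensation (0.42), *knl1*, a kinetochore scaffold (0.43), *kpna2*, a nuclear import receptor (0.46), and *tk1*, thymidine kinase (0.47). Among the nearest 100 genes were 43 of the 53 mitosis genes, 4 of 28 S phase genes, 1 of 9 spindle partners and 0 of 8 other hyaluronan members. Those members ranked 909 (*hapln1b*), 1380 (*stab2*), 1481 (*cd44b*), 9134 (*has1*), 12303 (*vcana*), 14475 (*vcanb*), 17108 (*has2*) and 17759 (*hapln1a*) of the 17932 genes. The measure holds the difference between genotypes as well as the spread within each, and the points share libraries and depth. It therefore restates in large part the fold changes given above and is not separate evidence. By median rank, a list of macrophage markers (506) lay nearer to *hmmr* than S phase genes (666.5) or spindle partners (1302). No macrophage marker was among the nearest 100.

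**Figure D3:**
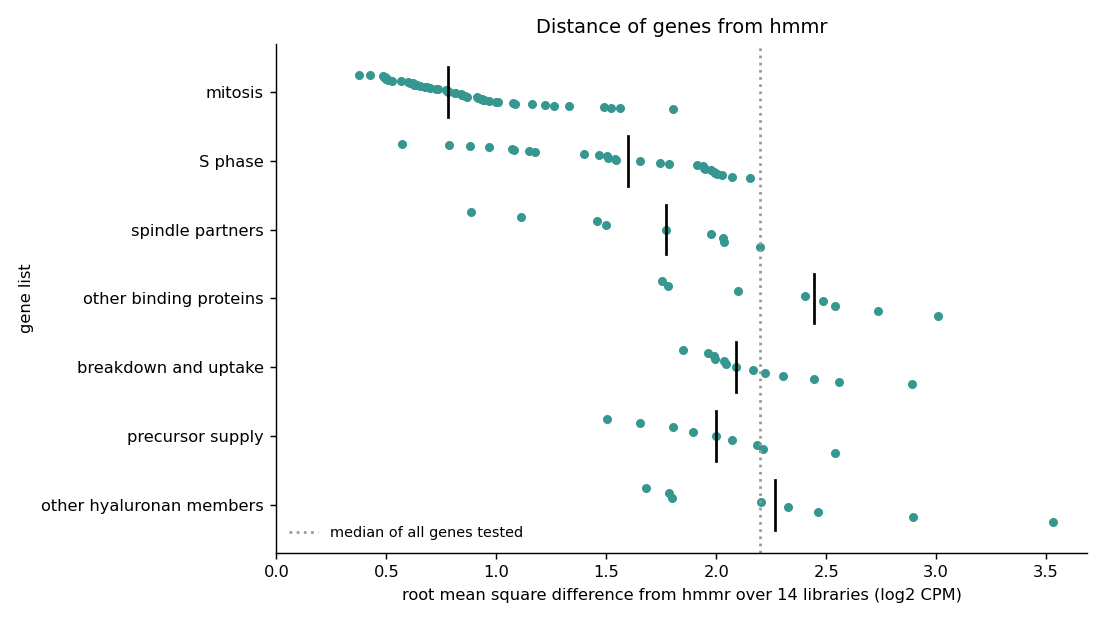
Root mean square difference from *hmmr* over 14 libraries, in log2 CPM units, for each gene of 7 lists (points) with the list median (black bar) and the median of 2.2 over all genes tested (dotted line). Mitosis genes have a median of 0.78. The other hyaluronan members run from 1.68 to 3.53, on both sides of the dotted line, with a median of 2.27 just past it.

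Within the *il11a*OE hearts of 7 mpt the libraries took the same order in *hmmr* as in the mitosis list. Centred log2 CPM of *hmmr* was 0.14, 0.68, 1.71 and 0.96 in *il11a*OE replicates 1 to 4, and the median of the mitosis list was -0.02, 0.62, 1.42 and 1.04. Replicate 3 was highest and replicate 1 lowest in both. Of the other members, *cd44b* was also highest in replicate 3 (2.21), while *hapln1b* was lowest there (0.03) and *has1* was nearly level, at 1.93 to 2.19. In control hearts *hmmr* was -1.41, -1.51, -0.67 and 0.09 and the mitosis list -1.35, -0.81, -0.22 and -0.34, so the order was not the same there. In both genotypes *hmmr* and the mitosis list were higher in replicates 3 and 4, of letter M, than in 1 and 2, of letter F. The shared order thus goes in part with the letter. With 4 libraries per genotype these orders are a description.

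**Figure D4:**
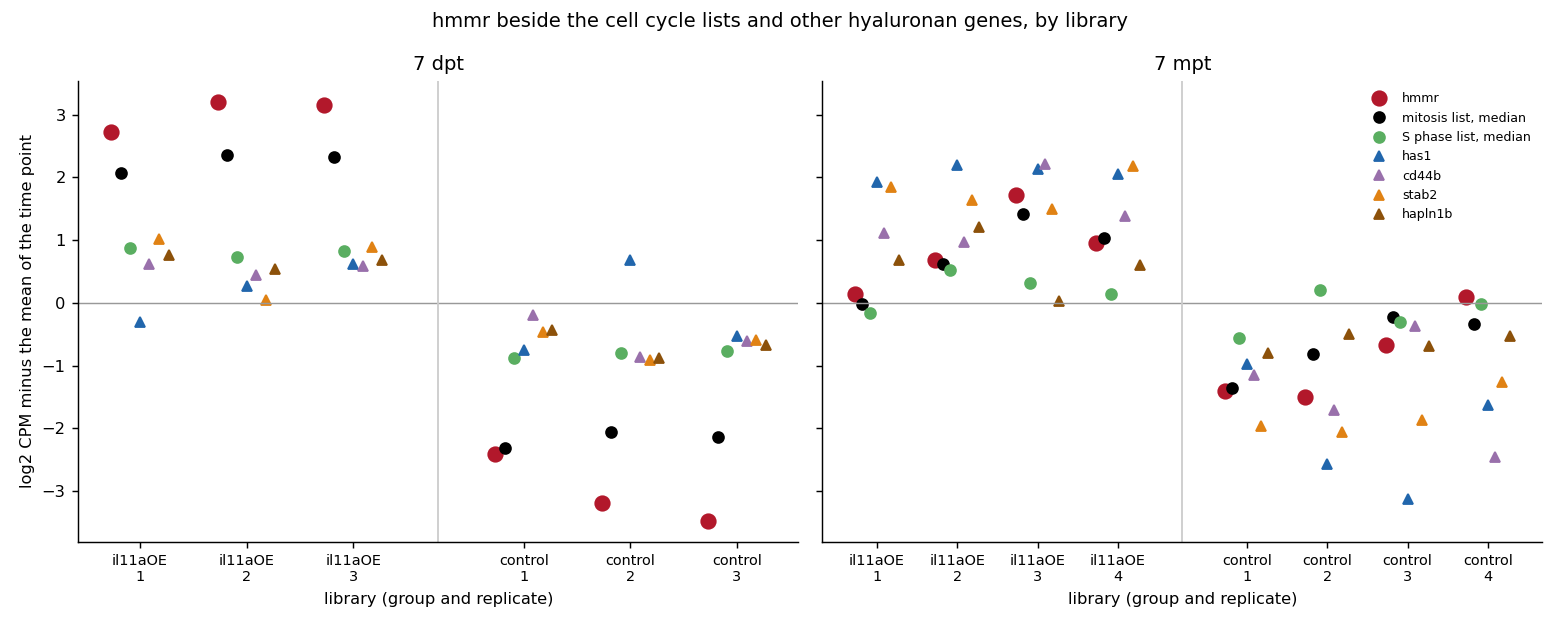
Log2 CPM minus the mean of the time point in every library, for *hmmr*, the medians of the mitosis and S phase lists (circles) and 4 other hyaluronan genes (triangles). At 7 dpt *hmmr* and the mitosis list are the farthest from 0 in all 6 libraries. At 7 mpt *has1* and *stab2* are as far from 0 as *hmmr* or farther in *il11a*OE hearts, apart from *stab2* in replicate 3.

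Of the synthases, *has1* (ENSDARG00000042983; chromosome 16, 24940377 to 24945337, minus strand) differed between genotypes only at the late time by the test used. At 7 dpt it had 0.587, 0.873 and 1.12 CPM in *il11a*OE hearts, against 0.424, 1.18 and 0.501 CPM in control hearts. These ranges overlapped, and the log2 fold change of 0.30 (SE 0.47) did not pass the test (edgeR adjusted p = 0.65). At 7 mpt it had 11.2, 13.4, 12.8 and 12.1 CPM in *il11a*OE hearts, against 1.48, 0.482, 0.327 and 0.934 CPM in control hearts. All 4 *il11a*OE libraries lay within a narrow band far above the controls. The effect was a log2 fold change of 3.94 (SE 0.43, n = 4 per genotype, adjusted p = 0.00025), or 15.3-fold, with 3.68 to 4.41 when 1 library was left out. The effect at 7 mpt exceeded that at 7 dpt by 3.63 on the log2 scale (SE 0.67, adjusted p = 0.0096).

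Fibroblast markers moved at the same time point as *has1*. Of 12 such genes 11 rose and 1 fell at 7 mpt, with a median log2 fold change of 2.48, and 2 rose and 3 fell at 7 dpt, with a median of 0.15. Calls among all genes made up 26.4% at 7 mpt and 37.2% at 7 dpt. Their summed level, led by *col1a1b*, a collagen I gene, was 9927, 11810, 5511 and 5481 CPM in the *il11a*OE libraries of 7 mpt, against 1983, 1233, 1229 and 1682 CPM in control libraries. Within *il11a*OE hearts the sum was about the same in replicates 3 and 4, of letter M, and higher in 1 and 2, of letter F. *has1* lay at 11.2 to 13.4 CPM in these libraries. The part of fibroblasts in the *has1* result was not tested.

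*has2* (ENSDARG00000036987; chromosome 16, 15369634 to 15387459, minus strand), the synthase of the embryonic cardiac jelly in zebrafish and mouse, was lower at 7 dpt by a narrow margin. It had 0.941, 1.25 and 1.09 CPM in *il11a*OE hearts, against 1.26, 3.00 and 3.57 CPM in control hearts. Control replicate 1 lay next to the *il11a*OE libraries, and the other controls stood apart. edgeR gave a log2 fold change of -1.25 (SE 0.39, n = 3 per genotype, adjusted p = 0.043). The call was lost without control replicate 2 or 3 and without *il11a*OE replicate 1, 2 or 3, with adjusted p of 0.084 to 0.14, with limma-voom (adjusted p = 0.064) and with all 14 libraries in a single fit (adjusted p = 0.38). At 7 mpt the gene had 2.23, 11.6, 0.924 and 0.762 CPM in *il11a*OE hearts, against 5.80, 3.4, 8.17 and 8.41 CPM in control hearts. *il11a*OE replicate 2 was the highest of all 8 libraries, and the other *il11a*OE libraries were below every control. The log2 fold change was -0.74 (SE 0.81, adjusted p = 0.58) with that library and -2.29 (adjusted p = 0.0098) without it. Among F libraries the fold change was 0.59 (adjusted p = 0.74) and among M libraries -3.29 (adjusted p = 0.004).

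The supply of sugar precursors was examined with a list of 10 genes. That list also held *has3*, a synthase gene and not a precursor gene. *has3* did not pass the test at 7 dpt (log2 fold change -0.13, edgeR adjusted p = 0.83) and was not tested at 7 mpt. At 7 dpt 4 rose and 1 fell (median log2 fold change 0.19), and at 7 mpt 5 rose and 1 fell of 9 tested (median 0.61). The share called among all genes was 37.2% at 7 dpt and 26.4% at 7 mpt. At 7 dpt the largest rises were in *pgm3* (1.83, edgeR adjusted p = 0.0029) and *uap1l1* (1.36, adjusted p = 0.00066). Both are related to the path to UDP-N-acetylglucosamine, the amino sugar of the chain. *gfpt1*, which makes the first step of that path, averaged 10.6 ± 0.705 CPM in *il11a*OE hearts and 5.83 ± 0.818 CPM in control hearts (SD, n = 3 each; adjusted p = 0.0031). At 7 mpt its paralog *gfpt2* averaged 3.17 ± 1.13 CPM in *il11a*OE hearts and 0.811 ± 0.41 CPM in control hearts (SD, n = 4 each; log2 fold change 1.96, adjusted p = 0.0068), and *pgm3* was again higher (1.47, adjusted p = 0.028). *ugdh*, which makes UDP-glucuronic acid, the other sugar, rose at both times (0.92, adjusted p = 0.011 at 7 dpt, and 0.65, adjusted p = 0.045 at 7 mpt). *ugp2a*, which makes UDP-glucose ahead of it, was lower at both times (-0.61, adjusted p = 0.0019 at 7 dpt, and -1.36, adjusted p = 0.011 at 7 mpt), and its paralog *ugp2b* rose at 7 mpt (0.61, adjusted p = 0.0044). For *ugdh* and *ugp2a* the libraries of the genotypes overlapped at 7 mpt.

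Of the 2 copies of *cd44*, *cd44b* rose at both times and *cd44a* was too sparse to read. *cd44b* (ENSDARG00000089892; chromosome 25, 37408792 to 37422859, minus strand) had 2.84, 2.50 and 2.78 CPM in *il11a*OE hearts, against 1.6, 1.01 and 1.2 CPM in control hearts at 7 dpt. This was a log2 fold change of 1.09 (SE 0.21, n = 3 per genotype, edgeR adjusted p = 0.0084), a call lost with all 14 libraries in a single fit (adjusted p = 0.13). At 7 mpt it had 5.50, 4.98, 11.8 and 6.64 CPM in *il11a*OE hearts, against 1.14, 0.767, 1.96 and 0.453 CPM in control hearts. The genotypes did not overlap at either time, and replicate 3 was the highest of each genotype at 7 mpt. The log2 fold change at 7 mpt was 2.74 (SE 0.47, n = 4 per genotype, adjusted p = 0.0023). The effects at the 2 times differed by 1.65 (SE 0.60), which did not pass the test (adjusted p = 0.14), although it did without control replicate 3 of 7 mpt (2.12, adjusted p = 0.044).

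Macrophage markers rose with *cd44b*, a receptor that leukocytes also carry. All 12 rose at 7 dpt (median log2 fold change 1.93) and 11 of 12 at 7 mpt (median 2.70). Over all genes tested, 20.2% were called higher at 7 dpt and 14.2% at 7 mpt. Their summed level, led by *cd74a*, was 872 to 1103 CPM in *il11a*OE hearts, against 342 to 409 CPM in control hearts at 7 dpt, and 1249 to 1484 CPM in *il11a*OE hearts, against 163 to 314 CPM in control hearts at 7 mpt. Their part in the *cd44b* result was not tested.

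*cd44a* (ENSDARG00000087863; chromosome 7, 49882750 to 49892991, minus strand) was barely detected apart from 2 control libraries. At 7 dpt it had 17, 5 and 1 counts in *il11a*OE hearts, against 6, 784 and 20 counts in control hearts, and the 784 counts of control replicate 2 came to 13.6 CPM. The log2 fold change of -5.63 (SE 2.21) did not pass the test (edgeR adjusted p = 0.1) and was -1.2 without that library. At 7 mpt the gene had 0, 38, 2 and 8 counts in *il11a*OE hearts, against 0, 0, 0 and 114 counts in control hearts, and it was left out of the test there by the filter on low counts. Control replicate 4 thus held all control counts of 7 mpt. No difference between genotypes could be read from this gene.

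Among 6 genes that link CD44 to the cytoskeleton, of which 5 were tested, 2 rose at each time point and none fell, with 37.2% of all genes called at 7 dpt and 26.4% at 7 mpt. At 7 dpt these were *ezrb*, an ezrin gene (log2 fold change 0.67, edgeR adjusted p = 0.02), and *nf2b*, a merlin gene (0.22, adjusted p = 0.048). At 7 mpt they were *nf2b* (0.74, adjusted p = 0.0028) and *nf2a* (1.2, adjusted p = 0.048).

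*stab2* (ENSDARG00000045748; chromosome 4, 10721795 to 10763547, plus strand) rose at both times, and more so at 7 mpt. At 7 dpt it had 25.2, 12.9 and 23.1 CPM in *il11a*OE hearts, against 8.99, 6.64 and 8.26 CPM in control hearts. *il11a*OE replicate 2 lay closest to the controls, and the genotypes did not overlap. On the log2 scale the fold change was 1.36 (SE 0.27, n = 3 per genotype, edgeR adjusted p = 0.0092). At 7 mpt it had 21.1, 18.2, 16.6 and 26.6 CPM in *il11a*OE hearts, against 1.5, 1.40, 1.6 and 2.43 CPM in control hearts. The lowest *il11a*OE library was several times above the highest control. The effect was a log2 fold change of 3.57 (SE 0.24, n = 4 per genotype, adjusted p = 3.9e-05), or 11.9-fold, with 3.42 to 3.78 when 1 library was left out. The effect at 7 mpt exceeded that at 7 dpt by 2.2 (SE 0.36, adjusted p = 0.0052). Of its 8087 exon bases, 183 overlap a gene on the other strand, and reads there were not counted.

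Stab2 is a protein of endothelial cells, including those of liver sinusoids, so both kinds of marker were examined. Their counts stand beside 37.2% of all genes called at 7 dpt and 26.4% at 7 mpt. Of 11 endothelial markers 1 rose and 4 fell at 7 dpt (median log2 fold change -0.41), and 1 rose and 9 fell at 7 mpt (median -0.78). Their summed level at 7 mpt was 598 to 730 CPM in *il11a*OE hearts, against 857 to 999 CPM in control hearts. The part of endothelial cells in the *stab2* result was not tested. Of 12 liver genes, 7 were tested at 7 dpt, where 1 rose and 1 fell. At 7 mpt 9 were tested, and 3 rose while none fell. Their sum was 859 to 2562 CPM in *il11a*OE hearts, against 19.3 to 113 CPM in control hearts, and nearly all of it was *tfa*, the transferrin gene, at 827 to 2481 CPM in *il11a*OE hearts, against 15.1 to 111 CPM in control hearts. The other liver genes that rose were *fga*, a fibrinogen chain gene, at 22.1 to 78.8 CPM in *il11a*OE hearts, against 0 to 0.548 CPM in control hearts (edgeR adjusted p = 0.00067), and *cp*, the ceruloplasmin gene, at 0.738 to 1.35 CPM in *il11a*OE hearts, against 0.0594 to 0.285 CPM in control hearts (adjusted p = 0.012). The liver-type fatty acid binding gene *fabp10a* was at 0.0185 to 1.73 CPM in *il11a*OE hearts, against 0.476 to 1.87 CPM in control hearts, and *apoa1a* was at 0.146 to 0.297 CPM in *il11a*OE hearts, against 0.0671 to 0.329 CPM in control hearts. Neither *fabp10a* nor *apoa1a* passed the test, and these 2 were looked up after their list had been seen. Other fibrinogen chain genes stayed near 0 at 7 mpt. *fgb* reached at most 0.157 CPM in *il11a*OE hearts and 0.329 CPM in control hearts, and *fgg* at most 0.0783 and 0.0876 CPM. *ambp* was at 0 to 0.159 CPM in *il11a*OE hearts, against 0.157 to 3.25 CPM in control hearts. *fgb*, *fgg* and *ambp* were also looked up after the list had been seen. The part of liver RNA in the *stab2* result was not tested.

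**Figure D5:**
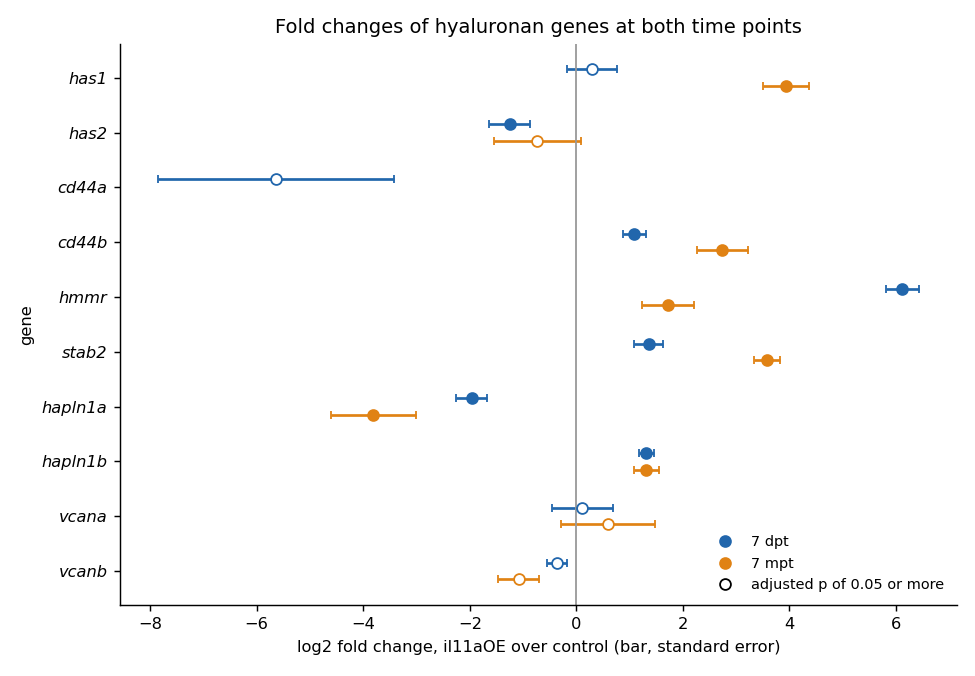
Log2 fold change, *il11a*OE over control, of the 10 genes at 7 dpt (blue) and 7 mpt (orange), with standard errors as bars. Open points did not pass an edgeR adjusted p of 0.05, and *cd44a* was not tested at 7 mpt. *hmmr* is at 6.12 and 1.72, while *has1* is at 0.30 and 3.94 and *stab2* at 1.36 and 3.57.

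Breakdown and uptake were followed with 14 genes, of which 13 were tested at each time. At 7 dpt 3 rose and 2 fell, with a median log2 fold change of 0.09, and at 7 mpt 6 rose and 1 fell, with a median of 0.68. Over all genes 37.2% were called at 7 dpt and 26.4% at 7 mpt. At 7 dpt the lysosomal hexosaminidase genes *hexa* and *hexb* rose modestly (0.40, edgeR adjusted p = 0.037, and 0.76, adjusted p = 0.014). The hyaluronidase gene *hyal1* fell (-0.58, adjusted p = 0.0044), as did *lyve1a*, a hyaluronan receptor gene of the lymphatic type, at 5.34 ± 2.29 CPM in *il11a*OE hearts and 14.9 ± 2.18 CPM in control hearts (SD, n = 3 each; adjusted p = 0.011). At 7 mpt *lyve1b*, the paralog, rose to 2.84 ± 1.17 CPM in *il11a*OE hearts, against 0.396 ± 0.325 CPM in control hearts (SD, n = 4 each; log2 fold change 2.84, adjusted p = 0.018). *cemip*, which binds hyaluronan and is needed for its cleavage in human cells, reached 48.7 ± 11.4 CPM in *il11a*OE hearts, against 18 ± 5.66 CPM in control hearts (SD, n = 4 each; 1.44, adjusted p = 0.0019). *gusb*, the lysosomal glucuronidase, rose (0.68, adjusted p = 0.0049), and *hyal2a* fell by the test though its genotypes overlapped (-1.67, adjusted p = 0.049). For *cemip* and its relative *cemip2* the effect was higher at 7 mpt than at 7 dpt (differences of 1.13, adjusted p = 0.046, and 0.94, adjusted p = 0.019).

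The link proteins changed in opposite directions. *hapln1a* (ENSDARG00000089769; chromosome 5, 46490622 to 46505702, minus strand) had 15.4, 10.4 and 23.0 CPM in *il11a*OE hearts, against 56.5, 71.9 and 62.4 CPM in control hearts at 7 dpt. edgeR gave a log2 fold change of -1.97 (SE 0.29, n = 3 per genotype, adjusted p = 0.0033), a call lost with all 14 libraries in a single fit (adjusted p = 0.094). At 7 mpt the gene had 3.20, 10.9, 7.45 and 1.13 CPM in *il11a*OE hearts, against 42.3, 89.5, 27.2 and 160 CPM in control hearts. Control libraries were spread widely, yet the lowest of them was above every *il11a*OE library. The log2 fold change was -3.81 (SE 0.79, n = 4 per genotype, adjusted p = 0.0076), with -3.23 without control replicate 4 and -4.33 without *il11a*OE replicate 2. With 2 libraries per genotype it was -3.22 among F libraries (adjusted p = 0.069) and -4.43 among M libraries (adjusted p = 0.09). The effects at the 2 times differed by -1.86 (SE 0.95), which did not pass the test (adjusted p = 0.29).

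*hapln1b* (ENSDARG00000068516; chromosome 10, 43269918 to 43334999, minus strand) had 20.6, 17.8 and 19.5 CPM in *il11a*OE hearts, against 8.99, 6.59 and 7.67 CPM in control hearts at 7 dpt. At 7 mpt it had 12.4, 18, 7.94 and 11.7 CPM in *il11a*OE hearts, against 4.45, 5.50, 4.78 and 5.38 CPM in control hearts. *il11a*OE libraries were above all controls at both times. At a time between these, the study had reported a larger area of a *hapln1b* reporter in the cortical layer of *il11a*OE hearts. That is reporter signal in sections, not RNA of whole hearts. The log2 fold change was 1.32 at 7 dpt (SE 0.13, n = 3 per genotype, edgeR adjusted p = 0.00074) and 1.31 at 7 mpt (SE 0.24, n = 4 per genotype, adjusted p = 0.003). The difference between these effects was -0.02 (SE 0.29, adjusted p = 0.98). At 7 mpt the fold change was 1.62 among F libraries (adjusted p = 0.039) and 0.95 among M libraries (adjusted p = 0.078). The reference calls this gene HAPLN1, and it was matched to *hapln1b* by its neighbours. Another gene that the reference calls HAPLN1, ENSDARG00000102395, lies on an unplaced scaffold and was looked at after the match. It had 13, 7 and 12 counts in *il11a*OE hearts, against 110, 49 and 57 counts in control hearts at 7 dpt (log2 fold change -3.18, adjusted p = 0.0014) and at most 10 counts in any library of 7 mpt. Reads that map to several places were not counted, so similar copies may have lost reads.

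Neither versican passed the test at either time. *vcana* (ENSDARG00000103515; chromosome 5, 46424437 to 46486028, plus strand) had 0.465, 0.994 and 1.57 CPM in *il11a*OE hearts, against 0.393, 1.25 and 1.17 CPM in control hearts at 7 dpt (log2 fold change 0.11, SE 0.57, edgeR adjusted p = 0.9). At 7 mpt *vcana* had 1.83, 8.35, 1.39 and 2.48 CPM in *il11a*OE hearts, against 5.35, 0.285, 0.713 and 2.97 CPM in control hearts (0.59, SE 0.88, adjusted p = 0.69). The genotypes overlapped at both times, and *il11a*OE replicate 2, the library with the highest *has2*, also had the highest *vcana*. Without it the fold change was -0.29. It also turned at 7 dpt, to -0.35 without *il11a*OE replicate 3 and to -0.26 without control replicate 1.

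*vcanb* (ENSDARG00000009401; chromosome 10, 43188678 to 43263885, plus strand) had 7.31, 5.19 and 6.34 CPM in *il11a*OE hearts, against 6.32, 9.40 and 8.48 CPM in control hearts at 7 dpt (log2 fold change -0.36, SE 0.19, edgeR adjusted p = 0.18). At 7 mpt it had 4.22, 5.68, 4.85 and 1.52 CPM in *il11a*OE hearts, against 7.54, 7.08, 6.75 and 13.2 CPM in control hearts. Here all *il11a*OE libraries were below all control libraries, and the log2 fold change was -1.08 (SE 0.39, adjusted p = 0.067). It passed with DESeq2 (adjusted p = 0.022), with limma-voom (adjusted p = 0.0497) and with all 14 libraries in a single fit (adjusted p = 0.027).

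Each versican gene lies beside a link protein gene. *vcana* and *hapln1a* point at each other on chromosome 5 with 4593 bases between their ends, and *vcanb* and *hapln1b* do so on chromosome 10 with 6032 bases between them. The link protein genes passed the test, as given above, and their versican neighbours did not. *vcanb* came near the threshold at 7 mpt, where its genotypes did not overlap (log2 fold change -1.08, edgeR adjusted p = 0.067). Whether neighbours differed from each other in their change was not tested. The counting ignored strand, but no exon of these 4 genes overlaps another gene in the annotation.

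Other genes for proteins that bind hyaluronan or process versican are set here beside the 37.2% of all genes called at 7 dpt and the 26.4% at 7 mpt. Of 15 further binding proteins 9 were tested at 7 dpt, where 2 rose and 3 fell (median log2 fold change -0.34), and 8 at 7 mpt, where 2 rose and none fell (median -0.17). *acana*, an aggrecan gene, averaged 10.7 ± 3.12 CPM in *il11a*OE hearts and 55.0 ± 21.8 CPM in control hearts at 7 dpt (SD, n = 3 each; -2.36, edgeR adjusted p = 0.0038), and *itih5*, a gene for an inter-alpha-trypsin inhibitor heavy chain, was also lower (-1.13, adjusted p = 0.0018). The link protein gene *hapln3* rose at both times (0.90, adjusted p = 0.027, and 1.83, adjusted p = 0.0015). So did *tnfaip6*, whose product moves heavy chains onto hyaluronan (1.08, adjusted p = 0.032, and 1.6, adjusted p = 0.0084).

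Of 9 ADAMTS and fibulin genes, chosen as possible versican proteases and partners, 3 rose and none fell at 7 dpt (median log2 fold change -0.22). At 7 mpt 2 rose and 1 fell (median -0.18). *fbln1*, a fibulin gene of the versican-rich matrix, had 12 ± 4.59 CPM in *il11a*OE hearts and 2.03 ± 0.597 CPM in control hearts at 7 dpt (SD, n = 3 each; 2.56, edgeR adjusted p = 0.0032). At 7 mpt the gene had 17.3 ± 4.16 CPM in *il11a*OE hearts and 0.374 ± 0.216 CPM in control hearts (SD, n = 4 each; 5.53, adjusted p = 6.7e-05), and the effects at the 2 times differed by 2.96 (adjusted p = 0.014). *adamts3* rose at both times (2.13, adjusted p = 0.013, and 4.12, adjusted p = 0.022). Its levels at 7 mpt were low, at 0.903 to 1.76 CPM in *il11a*OE hearts, against 0 to 0.208 CPM in control hearts. *adamts15a*, a versican protease gene, rose at 7 dpt (0.61, adjusted p = 0.033), and *fbln2* fell at 7 mpt (-0.70, adjusted p = 0.0073).

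Epicardial, smooth muscle and cardiomyocyte markers are set beside the 37.2% of all genes called at 7 dpt and the 26.4% at 7 mpt. Of 10 epicardial markers 3 rose and 3 fell at 7 dpt, and 5 of 9 tested rose and none fell at 7 mpt. Of 7 smooth muscle markers, led by *acta2*, 1 rose at 7 dpt and none passed the edgeR test at 7 mpt. Of 10 cardiomyocyte markers 1 rose and 8 fell at 7 dpt, and none rose and 8 fell at 7 mpt.

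The order of the genes by level changed with genotype. Levels were divided by exon length for this, as CPM per kilobase. At 7 dpt *hmmr* took rank 3 in *il11a*OE hearts (2.69 ± 0.462, SD, n = 3), where its libraries overlapped those of *hapln1a* above it and *stab2* below it, and last in control hearts (0.0378 ± 0.0168, SD, n = 3), below every library of *has1*, the next. The first place was held by *hapln1b* (3.68 ± 0.276) in *il11a*OE hearts, not apart from *hapln1a* (3.30 ± 1.29), and by *hapln1a* (12.9 ± 1.58) in control hearts, where each of its libraries was above every library of the other genes. At 7 mpt *has1* came first in *il11a*OE hearts (7.21 ± 0.557, SD, n = 4), overlapping *cd44b* (5.41 ± 2.33), and both stood above *stab2* (2.55 ± 0.541). In control hearts *hapln1a* came first (16.2 ± 12.1, SD, n = 4), above every library of *has2* (1.40 ± 0.509), and the genes from *has2* down to *stab2* each overlapped the next. *hmmr* took rank 8 in both genotypes at 7 mpt (0.795 ± 0.375 in *il11a*OE hearts and 0.241 ± 0.134 in control hearts).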

How the data were processed

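Libraries of poly(A) RNA from pooled hearts were assigned to genotype and time by their labels. The authors trimmed reads, aligned them to GRCz11 with HISAT2 and counted them on exons of Ensembl 104 genes with featureCounts 2.0.0, without strand and without reads that map to several places or genes. The deposited values are raw counts, of fragments at 7 dpt and of single mates at 7 mpt, where 99.1% to 99.4% of the counts above 0 were even. The authors' exon lengths were used for CPM per kilobase. No column of another sample was present. Although the methods name 3 pools for each group, all 4 libraries per genotype of 7 mpt were used. Replicate libraries differed by far more than counting noise (chi-square per degree of freedom 49.2 to 343), so none was taken for a duplicate.

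After filterByExpr and TMM scaling, each time point was fitted alone with edgeR's robust quasi-likelihood test (R 4.3.3, edgeR 4.0.16). The difference of effects was tested over all 14 libraries. P-values were adjusted over all genes tested with the Benjamini-Hochberg method (threshold 0.05). Fits were tested on simulated data. Alternatives used DESeq2 1.42.0, limma-voom (limma 3.58.1), other filters and scaling, the library letter, halved counts at 7 mpt, a replicate block, a prior count of 0.25 in place of 1, and each library left out.

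Members and lists were chosen with earlier results of these data known. Of 246 list symbols 228 were matched: 82 by reference name, 66 by names in the study's tables and 80, among them *has1*, *has2* and *hapln1b*, by the stem of the reference name and at least 2 RefSeq neighbours shared within 5 genes on each side. RefSeq coordinates were not used. Named genes were the members; in the other hyaluronan lists all genes called or, above 4, the 2 highest and 2 lowest; in the cell cycle lists the 2 nearest to *hmmr* in fold change; the 5 genes nearest to *hmmr*; and the most abundant gene of marker lists. Also named, outside this rule, were *has3*, *ugdh*, *cemip2* and the liver genes other than *tfa*. Promoter and protein sequences were not analysed here.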

Additional observations from a re-analysis of the deposited data

Results flagged for a closer look

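At 7 mpt 2 libraries stood far from the others of their group, each in 2 member genes, by Dixon's criterion for groups of 4. The criterion was applied to CPM on the linear scale in 20 such groups. It assumes normal values, so how many flags chance would give here is not known. *il11a*OE replicate 2 had 11.6 CPM of *has2*, with 0.762 to 2.23 CPM in the other *il11a*OE libraries, and 8.35 CPM of *vcana*, with 1.39 to 2.48 CPM in the others. Control replicate 4 had 1.61 CPM of *cd44a*, which was at 0 in the other controls, so any count there would be flagged. It also had 13.2 CPM of *vcanb*, with 6.75 to 7.54 CPM in the others. The effect of *il11a*OE differed between 7 mpt and 7 dpt by edgeR's test of the difference for *hmmr* (-4.41 on the log2 scale, adjusted p = 0.0042), *has1* (3.63, adjusted p = 0.0096) and *stab2* (2.2, adjusted p = 0.0052).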

How the results depend on the processing

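Across the alternatives 3 to 6 members were called at 7 dpt, 4 to 7 at 7 mpt and 2 to 4 in the difference of effects. With all 14 libraries in a single fit 3 members were called at 7 dpt, against 6, and 3437 genes in all, against 7318. Among F libraries alone 1360 genes were called, against 4928. In the difference of effects DESeq2 called 2013 genes and limma-voom 1516, against 940, and 370 to 478 were called when a 7 dpt library was left out. *hmmr* at 7 mpt had log2 fold changes of 1.35 to 2.15 when 1 library was left out, and it fell short of the threshold among F libraries (1.92, adjusted p = 0.098) and M libraries (1.63, adjusted p = 0.074); the cause was not tested. At 7 dpt *hmmr* could not be tested with at least 10 counts required in every library.

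Among values that did not pass the test, directions turned for *has2* at 7 mpt among F libraries (0.59), for its difference of effects with limma-voom (-0.44) and for that of *hapln1b* with DESeq2 size factors (0.0232), DESeq2 (0.0234) and the filter of 10 counts (0.0473). When 1 library was left out, values ran from -0.35 to 0.46 for *vcana* at 7 dpt, from -0.29 to 1.41 for *vcana* at 7 mpt and, for differences of effects, from -0.40 to 1.32 (*vcana*), -1.04 to 0.82 (*has2*), -0.54 to 12.1 (*cd44a*) and -0.24 to 0.14 (*hapln1b*).

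Replicate numbers were not taken to pair the libraries. Same-numbered libraries deviated with correlations of -0.02 to 0.17 at 7 dpt and -0.05 to 0.06 at 7 mpt. Differently numbered ones had -0.106 to 0.0936 at 7 dpt and -0.13 to 0.157 at 7 mpt. With so few libraries per genotype these values cannot exclude a pairing. With a replicate block 5 members were called at 7 dpt, 6 at 7 mpt and 3 in the difference, where 568 genes were called and *has2* turned to -0.60. The member no longer called at 7 dpt with the block was *has2* (-1.14, adjusted p = 0.051). *cd44a* and control *hmmr* at 7 dpt rest on few counts, which limits their precision.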
